A study of Mus musculus with 6 samples.

Results

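Astrocytes hold genes that move water, urea and potassium across their membranes, and 8 of them (*Aqp4*, *Aqp9*, *Slc14a1*, *Kcnj10*, *Kcnj16*, *Atp1b2*, *Dtna* and *Mlc1*) were taken by name from the 24421 genes of the deposited tables. All 8 were listed in both tables and all 8 passed the filter on low values. The libraries came from astrocytes of the hippocampus of adult male *Siglech* dtr/dtr mice on a C57BL/6 background, in which the diphtheria toxin (DT) receptor is carried at *Siglech*, a gene of microglia. Mice of both groups carried the allele. The PBS group (3 libraries) was injected with PBS and the DT group (3 libraries) with DT at 50 μg/kg, which ablates microglia, and each library held the RNA of a pool of 2 mice 2 days later. Astrocytes were enriched on magnetic beads against an astrocyte surface antigen after cells bearing CD11b had been removed. No DT-treated mice without the receptor were analysed here, so an effect of DT itself and the loss of microglia cannot be told apart.

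Astrocyte endfeet wrap the vessels of the brain and carry the water channel AQP4, which is anchored there by the dystrophin complex. Potassium released by active neurons is taken up by the sodium pump and by inward rectifier channels, and water follows such ion fluxes. AQP9 is a channel for water and small solutes such as glycerol, and the product of *Slc14a1* is a urea transporter.

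The libraries held 21704891 to 32933975 reads. No DT library held a read of *Siglech*, and the summed level of 12 microglia markers was 147 to 183 reads scaled to library size (CPM) after PBS and 67.1 to 78.2 CPM after DT. The 13 astrocyte markers summed to 64596 to 69123 CPM after PBS and to 64689 to 74465 CPM after DT, and of these only *Gfap* passed the test. Most of each sum was *Slc1a2*, at 35728 to 37969 CPM after PBS and 35744 to 41484 CPM after DT. The 7 markers of border-associated macrophages summed to 18.6 to 28.9 CPM after PBS and to 67.3 to 79.8 CPM after DT, and 3 of them rose. The 8 ependymal markers summed to 248 to 303 CPM after PBS and to 328 to 540 CPM after DT, with the highest sum in DT replicate 3. The 6 oligodendrocyte precursor markers summed to 370 to 478 CPM after PBS and to 319 to 362 CPM after DT. For the 8 endothelial markers the sums were 764 to 1219 CPM after PBS and 645 to 776 CPM after DT, which overlapped. In such bulk samples, a change in the number of cells of a type and a change in RNA per cell cannot be told apart. From stained sections of part of the hippocampus, the paper reported fewer live microglia after DT. Its count of perivascular macrophages there did not change significantly.

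Per unit of transcript length, 7 of the 8 genes were highly expressed. In length-scaled transcript units (TPM), *Atp1b2* stood highest after PBS with 1014 ± 30.6 TPM (SD, n = 3), followed by *Mlc1* with 899 ± 28.8, *Aqp4* with 515 ± 193, *Dtna* with 278 ± 8.89, *Kcnj16* with 253 ± 12, *Kcnj10* with 129 ± 12.3, *Slc14a1* with 107 ± 3.75 and *Aqp9* with 7.76 ± 1.44 TPM. The ranges of neighbours in this order did not overlap in the PBS libraries. In the DT libraries *Slc14a1* stood above *Kcnj10*, and the ranges of neighbours overlapped between *Mlc1* and *Aqp4* and between *Dtna* and *Kcnj16*. The range of *Aqp4* there, 479 to 1666 TPM, also spanned that of *Atp1b2*, 1186 to 1328 TPM. Over all 6 libraries the mean TPM of the 7 genes other than *Aqp9* lay between percentile 92.4 (*Kcnj10*) and percentile 99.6 (*Atp1b2*) of the genes tested, whereas *Aqp9* lay at percentile 24.7.

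**Figure D1:**
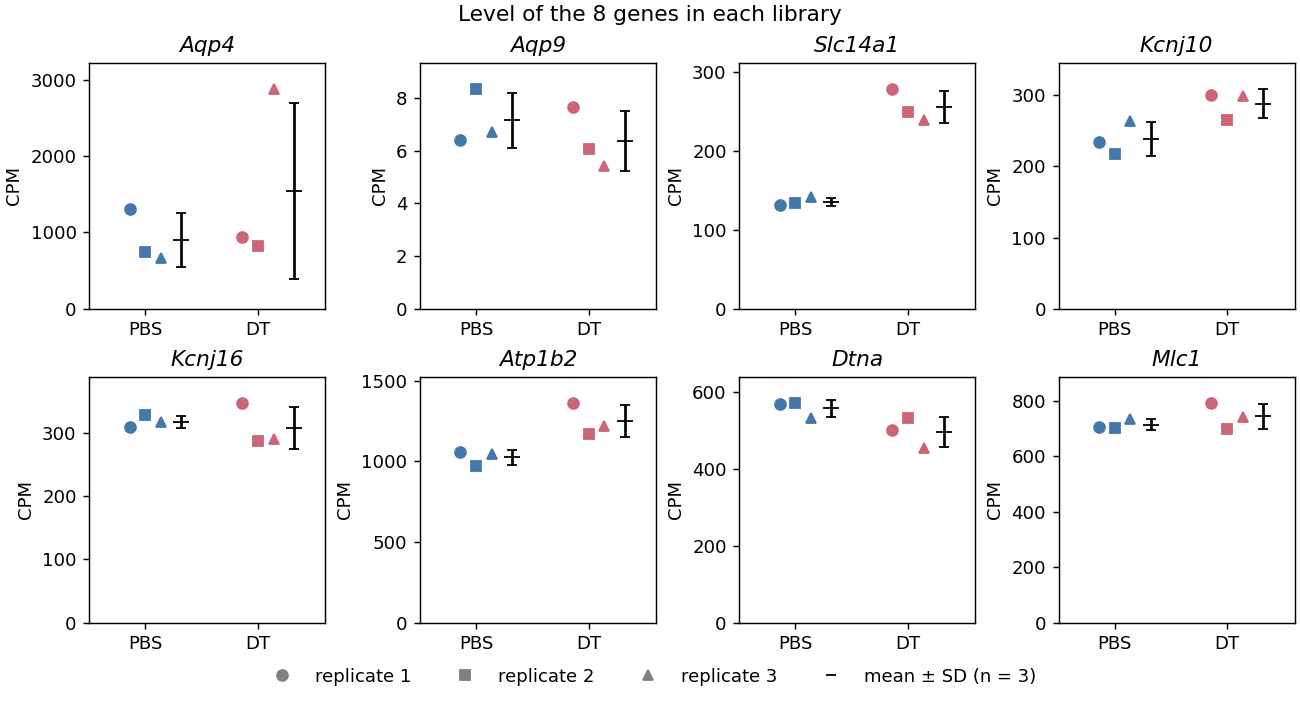
The panels plot the CPM (y axis, from 0) of each of the 8 genes in the 3 PBS and 3 DT libraries, with symbols for the replicate and black bars for the mean ± SD. The DT libraries of *Slc14a1* lie at 240 to 278 CPM, above all PBS libraries, while a single DT library lifts *Aqp4* to 2871 CPM.

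Of the 8 genes, 1 rose and 0 fell after DT at an adjusted p under 0.05 (limma on log2(CPM + 0.1), two-sided, adjusted over 15137 genes). Of all genes tested, 0.555% rose and 0.159% fell. With edgeR's quasi-likelihood test on the reads recovered from the CPM, *Slc14a1* was again the 1 member that rose (0.575% of all genes rose and 0.159% fell), and DESeq2 on the same reads called 2 members higher (1.5% of all genes rose and 0.648% fell). An unadjusted p under 0.05 in limma was found for 4 of the 8 genes, 3 higher and 1 lower, and for 5.91% of all genes higher and 4.51% lower. A further 4 of the 8 had a positive and 3 a negative log2 fold change that did not pass. The median log2 fold change of the 8 genes was 0.17, and that of all genes tested was -0.0052. The lowest DT library exceeded the highest PBS library in 3 of the 8 genes (*Slc14a1*, *Kcnj10* and *Atp1b2*), as in 8.75% of all genes tested, and the reverse held in 0 of them and in 7.57% of all genes.

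**Figure D2:**
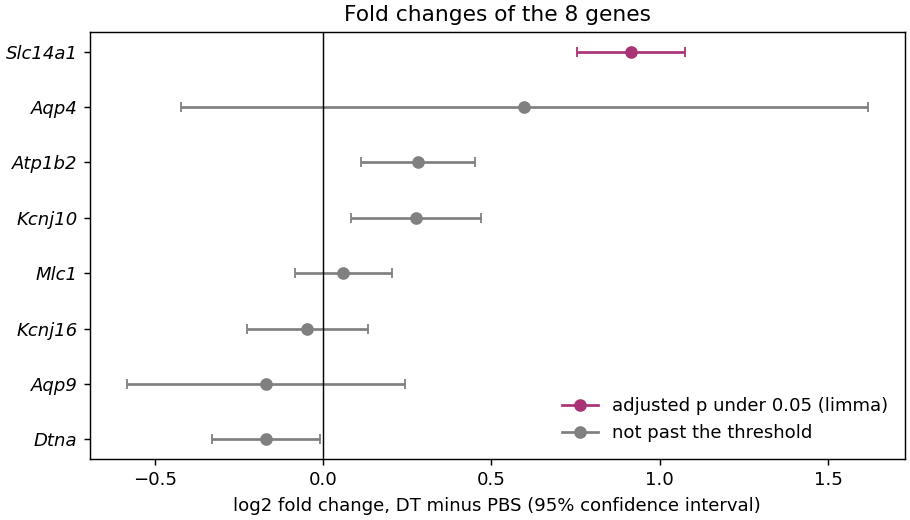
The plot gives the log2 fold change (DT minus PBS, x axis) of each gene with its 95% confidence interval from limma. *Slc14a1*, in colour, is the gene that passed the threshold, at 0.92, and the interval of *Aqp4* is the widest.

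*Slc14a1* encodes the urea transporter of astrocytes and red blood cells and occupies positions 78100091 to 78142119 of chromosome 18 (mm10, minus strand). It was measured at 131, 134 and 142 CPM in the PBS libraries and at 278, 250 and 240 CPM in the DT libraries. The groups were far apart, with each of them narrow. Mean levels were 136 ± 5.54 CPM in PBS and 256 ± 19.98 CPM in DT (SD, n = 3), and the gene rose by 0.92 ± 0.07 (SE) on the log2 scale (limma, adjusted p = 0.000765). This is a 1.89-fold rise, with a 95% confidence interval of 1.69 to 2.11. From 2849 to 7684 reads stood behind each value. Measured against *Mlc1* in the same library, the TPM of *Slc14a1* amounted to 0.118 to 0.120 of it in each PBS library and to 0.205 to 0.225 in each DT library. Against *Aqp4* the ratio was 0.139 to 0.289 after PBS and 0.117 to 0.425 after DT, so the groups overlapped. These ratios were chosen after the levels had been seen, and they are given with no test. Red blood cell transcripts were uneven, with 7 erythroid markers summing to 32.6, 15.3 and 125 CPM after PBS and to 7.90, 54.6 and 29.6 CPM after DT. Their part in the level of *Slc14a1* was not tested. The summed markers of border-associated macrophages and of ependymal cells were also higher in every DT library than in any PBS library. Their part in the rise of *Slc14a1* was not tested.

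Of 7715 other genes with a mean of at least 20 CPM, those whose log2 level followed *Slc14a1* most closely over the 6 libraries were *Vwa5a* (Pearson r = 0.998) and *Gfap* (r = 0.998), the intermediate filament gene of reactive astrocytes. *Gfap* rose by 1.93 and *Vwa5a* by 0.42 on the log2 scale (limma, adjusted p = 8.20e-05 and 0.0215). The r was taken over both groups together, so it includes the difference between PBS and DT. With only 6 points shared by all genes, 85 genes reached an r of 0.95 with *Slc14a1*. In the other members this number lay between 9 (*Aqp4* and *Mlc1*) and 42 (*Dtna*).

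*Aqp4*, the main water channel of the brain, occupies positions 15389496 to 15410982 of chromosome 18 (minus strand), and an antisense gene overlaps it there. It was measured at 1304, 743 and 660 CPM in the PBS libraries and at 943, 817 and 2871 CPM in the DT libraries. DT replicate 3 stood far above the others, and the remaining DT libraries lay within the PBS range. In that library *Aqp4* took 65829 reads, or 0.293% of all reads, against 0.0662% to 0.127% in the other 5 libraries. The deposited TPM had the same shape, with 1666 TPM in DT replicate 3 and 378 to 736 TPM elsewhere. DT and PBS differed by 0.60 ± 0.45 (SE) on the log2 scale, with a 95% confidence interval of -0.42 to 1.62 (limma, adjusted p = 0.694). Without DT replicate 3 this difference was 0.027 (limma, adjusted p = 0.992), and with any other library left out it lay between 0.40 and 0.93, so that it rested on that library.

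This spread belonged to few genes. The SD of *Aqp4* within groups was 0.79 on the log2 scale, and of 1995 genes with a mean of at least 100 CPM only 9 had a larger one, where the median was 0.083. The other 7 members lay between 0.068 (*Mlc1*) and 0.23 (*Aqp9*). The summed ependymal markers, from cells that also carry AQP4, were highest in DT replicate 3 as well, at 540 CPM. They were lowest in PBS replicate 1, at 248 CPM, the library in which *Aqp4* was highest among the PBS group. Their part in the level of *Aqp4* was not tested. A part of read quantification in the level of DT replicate 3 was not tested either. *Mxra8* (r = 0.9795) and *Ifit3b* (r = 0.979) followed *Aqp4* most closely. Neither was as uneven, and *Mxra8* had 33.0, 28.2 and 29.6 CPM after PBS and 30.2, 29.6 and 40.2 CPM after DT.

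**Figure D3:**
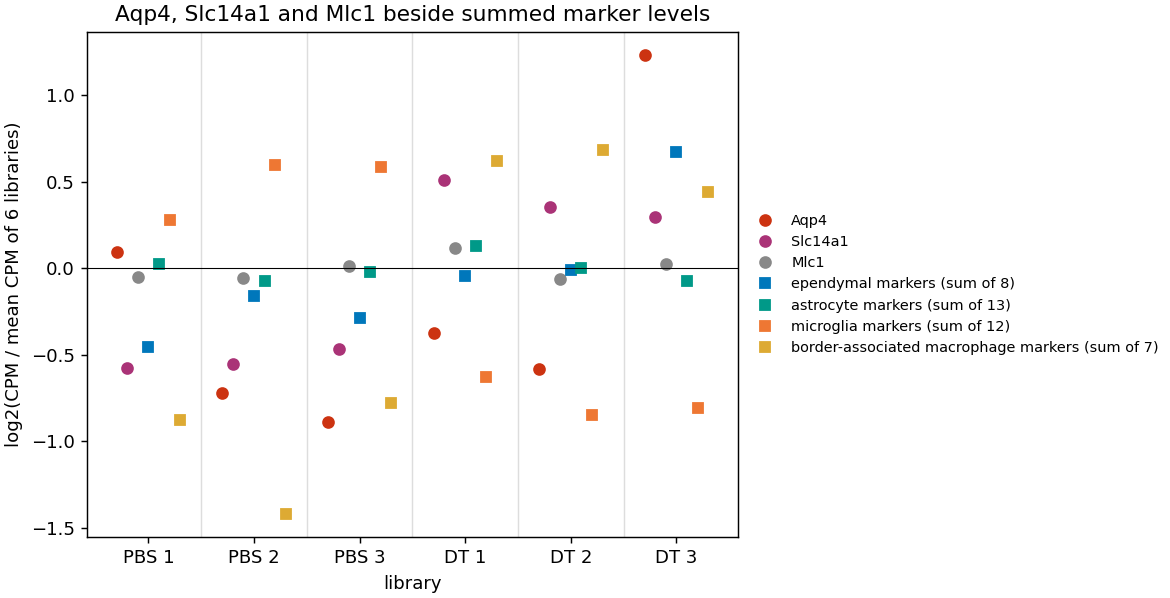
For each library on the x axis, the level of *Aqp4*, *Slc14a1* and *Mlc1* (circles) and the summed level of 4 marker lists (squares) are given relative to their mean over the 6 libraries, as a log2 value of CPM. *Aqp4* and the ependymal markers both peak in DT replicate 3. *Slc14a1*, the border-associated macrophage markers and the ependymal markers are higher in all DT libraries. Microglia markers are lower there, and *Mlc1* and the astrocyte markers stay close to 0.

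*Aqp9* (chromosome 9, positions 71110659 to 71168682, minus strand) is overlapped by a pseudogene and an antisense gene. It was read only 124 to 276 times per library. Its level was 6.40, 8.32 and 6.71 CPM after PBS and 7.64, 6.04 and 5.41 CPM after DT, so the groups overlapped. DT minus PBS was -0.17 on the log2 scale (95% confidence interval -0.58 to 0.24, limma, adjusted p = 0.796). *Acat2* (r = 0.990) and *Mrps7* (r = 0.988) followed it most closely. Neutrophils can also carry AQP9. Of 8 monocyte and neutrophil markers, 7 were listed, and these summed to 1.24 to 2.34 CPM after PBS and to 0.96 to 1.27 CPM after DT. Of the 7, 4 (*S100a8*, *S100a9*, *Mmp8* and *Retnlg*) had no read in any library, and *Ly6c2* had 17 to 40 reads per library. Their part in the level of *Aqp9* was not tested.

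Neither potassium channel gene passed the test. *Kcnj10* encodes the main inward rectifier subunit of astrocytes, and *Kcnj16* a subunit that joins it in mixed channels. *Kcnj10* (chromosome 1, positions 172341210 to 172374085, plus strand) was at 235, 217 and 264 CPM after PBS and at 301, 265 and 299 CPM after DT. All DT libraries lay above the PBS libraries, but the highest PBS and the lowest DT library nearly touched. With 0.28 on the log2 scale (95% confidence interval 0.08 to 0.47) the difference did not pass the threshold over all genes (limma, adjusted p = 0.307, unadjusted p = 0.0108). The genes nearest to *Kcnj10* in pattern were *Tgfa* (r = 0.987) and *Bag5* (r = 0.985).

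*Kcnj16* (chromosome 11, positions 110968033 to 111027968, plus strand) was at 309, 327 and 316 CPM after PBS and at 347, 287 and 291 CPM after DT. The PBS libraries lay within the range of the DT libraries. On the log2 scale the groups differed by -0.05 (95% confidence interval -0.23 to 0.13, limma, adjusted p = 0.878), and this sign turned without DT replicate 2 (0.00053). *Slc7a2* (r = 0.996) and *Mapre1* (r = 0.993) shared most of its pattern. In TPM, *Kcnj16* exceeded *Kcnj10* by a ratio of 1.93, 2.22 and 1.77 in the PBS libraries and of 1.70, 1.596 and 1.43 in the DT libraries. The ratio was lower in every DT library than in any PBS library. It was computed after the levels had been seen, and it is given with no test.

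*Kcnj16* was also the single member with a match to the STAT motif TTCNNNGAA, which reads the same on both strands, in its RefSeq promoters (GRCm38.p6, from 250 bases before to 50 after a start). Promoters were found for 4 members (*Kcnj10*, *Aqp9*, *Kcnj16* and *Mlc1*), 8 windows in all, and 1 of the 8 held the motif, as did 8.30% of 32851 promoters of all genes. The 60 bases around it, on the plus strand at chr11:110967822-110967881, are shown with the match in capitals.
*Kcnj16*: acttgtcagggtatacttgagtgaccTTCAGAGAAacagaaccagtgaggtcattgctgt

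*Atp1b2* encodes a beta subunit of the sodium pump that glia use and occupies positions 69599736 to 69605942 of chromosome 11 (minus strand). It was measured at 1060, 973 and 1043 CPM after PBS and at 1360, 1168 and 1217 CPM after DT. All DT libraries were above the PBS libraries. A difference of 0.28 on the log2 scale (95% confidence interval 0.11 to 0.45) missed the threshold over all genes (limma, adjusted p = 0.207, unadjusted p = 0.00452). With DESeq2 on the reads recovered from the CPM, *Atp1b2* passed (0.29 on the log2 scale, adjusted p = 0.0232). *Ext1* (r = 0.995) and *Naf1* (r = 0.988) were most like it.

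*Dtna* encodes alpha-dystrobrevin, part of the dystrophin complex that holds AQP4 at the endfoot, and occupies positions 23415135 to 23659715 of chromosome 18 (plus strand), where an antisense gene overlaps it. It was at 569, 569 and 531 CPM after PBS and at 500, 531 and 455 CPM after DT. The lowest PBS library and the highest DT library stood at the same level, and the other DT libraries lay below. The groups differed by -0.17 on the log2 scale (95% confidence interval -0.33 to -0.01, limma, adjusted p = 0.458, unadjusted p = 0.0399), which did not pass. *Zufsp* (r = 0.996) and *Bdp1* (r = 0.994) followed *Dtna* most closely.

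*Mlc1*, the gene of a membrane protein of perivascular astrocyte processes that takes part in volume regulation, occupies positions 88955884 to 88979007 of chromosome 15 (minus strand). It was at 705, 702 and 737 CPM after PBS and at 792, 700 and 744 CPM after DT. The groups overlapped. Its difference of 0.06 on the log2 scale had the narrowest interval of the 8 genes (95% confidence interval -0.08 to 0.20, limma, adjusted p = 0.794), so that a change beyond 1.15-fold upward or 0.943-fold downward lay outside the interval. *Ppia* (r = 0.979) and *1810026J23Rik* (r = 0.974) were most like it.

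Related genes were taken from 5 lists of 73 genes in all, of which 61 were tested. Of these, 1 rose and 0 fell, against 0.555% and 0.159% of all genes, and 12 had an unadjusted p under 0.05, 9 of them higher and 3 lower (5.91% and 4.51% of all genes). With edgeR's quasi-likelihood test 1 of them rose, and with DESeq2 2 rose. The gene that rose was *Atp1b1*, the other main beta subunit of the sodium pump, which neurons also express. It was measured at 171, 182 and 182 CPM after PBS and at 219, 224 and 227 CPM after DT and rose by 0.33 ± 0.06 (SE) on the log2 scale (limma, adjusted p = 0.0429). This call was close to the threshold and was lost in each of the 6 fits that left out 1 library (adjusted p from 0.0946 to 0.219).

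**Figure D4:**
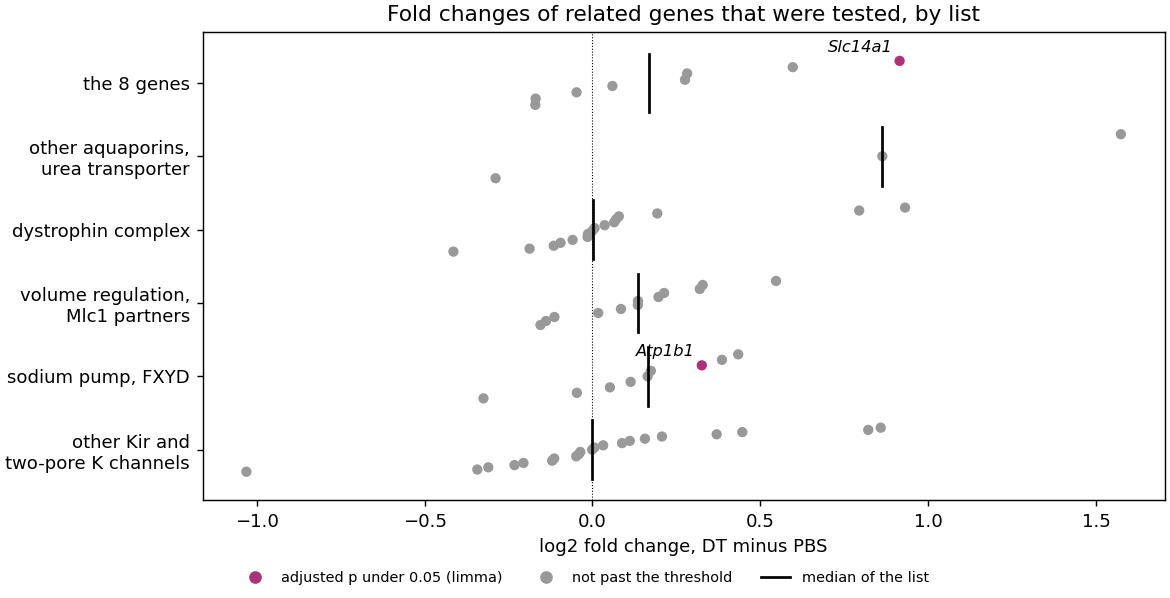
The log2 fold change (DT minus PBS, x axis) of each gene tested is plotted by list, with the median of each list as a black line and genes past the threshold in colour. *Slc14a1* and *Atp1b1* are the coloured genes, and the medians of the dystrophin complex and of the other potassium channels lie at 0.0026 and -0.0011.

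Of the 11 genes of the sodium pump and its FXYD regulators, 9 were tested and 7 had a positive log2 fold change, with a median of 0.16. At an unadjusted p under 0.05 in limma, 4 were higher and 0 lower (5.91% and 4.51% of all genes). All DT libraries lay above the PBS libraries in 4 of the 9 and below them in 0 (8.75% and 7.57% of all genes). *Fxyd1*, a regulator of the pump, differed by 0.17 on the log2 scale (limma, adjusted p = 0.399), with all DT libraries above the PBS libraries.

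Of the 16 genes of the dystrophin complex and endfoot anchoring, 8 had a positive and 8 a negative log2 fold change, and none of them passed in limma. At an unadjusted p under 0.05, 1 was higher and 0 lower (5.91% and 4.51% of all genes). *Utrn*, which encodes utrophin, differed by -0.19 (limma, adjusted p = 0.513), with all DT libraries below the PBS libraries. *Dag1*, which encodes dystroglycan, was at 31.8, 451 and 456 CPM after PBS and at 504, 25.1 and 457 CPM after DT. It thus stood at 2 levels, with PBS replicate 1 and DT replicate 2 at the low one, and no gene with a mean of at least 100 CPM had a larger SD within groups. Its log2 fold change of -0.06 had a 95% confidence interval of -3.04 to 2.93. A part of read quantification in these 2 levels was not tested.

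Among the partners of *Mlc1* and the genes of volume regulation, 12 of 13 were tested, 9 had a positive log2 fold change and none passed in limma. At an unadjusted p under 0.05, 2 were higher and 1 lower (5.91% and 4.51% of all genes). *Hepacam*, whose product binds MLC1, was at 705, 632 and 642 CPM after PBS and at 703, 643 and 656 CPM after DT, with a log2 fold change of 0.02 (95% confidence interval -0.13 to 0.17). *Lrrc8a*, the obligate subunit of the volume-regulated anion channel, had a log2 fold change of 0.20 (95% confidence interval -0.02 to 0.41). The ranges of both genes overlapped between the groups.

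Among 22 other inward rectifier and two-pore potassium channels, 21 were tested, 10 had a positive and 11 a negative log2 fold change, and none passed in limma. At an unadjusted p under 0.05, 0 were higher and 2 lower (5.91% and 4.51% of all genes). *Kcnk1*, the most abundant of them, was at 301, 307 and 301 CPM after PBS and at 289, 253 and 234 CPM after DT. All its DT libraries lay below the PBS libraries, at a log2 fold change of -0.23 (95% confidence interval -0.41 to -0.05, adjusted p = 0.365 from limma). *Kcnk2* had overlapping groups and a log2 fold change of -0.04.

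Of the 11 genes of other aquaporins and the second urea transporter, 3 were tested and 6 had at most 3 reads in each library. None of the 3 passed in limma. At an unadjusted p under 0.05, 2 were higher and 0 lower (5.91% and 4.51% of all genes). *Aqp11* stood above *Aqp9* in TPM. *Aqp11* was at 14.6 TPM after PBS and 12.2 TPM after DT (adjusted p = 0.716 from limma), and *Slc14a2* at 2.69 and 3.34 TPM (adjusted p = 0.460 from limma). *Slc14a1* was thus the urea transporter gene of these libraries by level. Reads of *Aqp1*, a gene of choroid plexus epithelium, gave 0.322 to 1.598 CPM after PBS and 2.22 to 3.58 CPM after DT (adjusted p = 0.327 from limma). The 8 choroid plexus markers summed to 46.2 to 867 CPM after PBS and to 544 to 1512 CPM after DT. Most of each sum was *Ttr*, at 33.4 to 807 CPM after PBS and 489 to 1416 CPM after DT. The part of these markers in the level of *Aqp1* was not tested.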

How the data were processed

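Per the submitters' processing notes and the paper's methods, the authors trimmed reads with Trim Galore 0.5.0, checked them with FastQC 0.11.8, mapped them to mm10 with HISAT2 2.1.0 using strand, removed ribosomal reads with bedtools 2.25.0, quantified genes with StringTie 1.3.5 and used edgeR 3.24.3 in R 3.5.1. The deposited CPM is a signal scaled to TMM-adjusted library sizes (columns sum to 980428 to 1026170) rather than the plain CPM foreseen when the test was chosen. The TPM, also deposited, gives levels per length. Columns with the authors' own p-values, q-values and log2 ratios were left out. Whole reads were recovered from the CPM for 100% of values (within 0.05 reads).

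Genes averaging 0.5 CPM or more were compared with limma 3.58.1 (R 4.3.3, variance trend) on log2(CPM + 0.1), with Benjamini-Hochberg adjustment. Such fold changes understate those of low genes. Replicates are RNA pools from independent experiments. The number of reads limits the precision of each value, and intervals of fold changes cover the spread between libraries. On the recovered reads, edgeR 4.0.16 (quasi-likelihood) called 87 genes higher and 24 lower, and DESeq2 1.42.0 called 227 and 98. Other alternatives were pseudocounts of 0.5 and 1, no filter, a filter at 2 CPM, the TPM values, quantile normalization, a fit lacking the variance trend, a replicate block and each library left out. The tests were tested on simulated data. Coordinates are those of GENCODE M21.

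Members and lists (the 5 related lists and 12 marker lists) were chosen with earlier results of these data known. Named are all members, related genes past the threshold, the 2 most abundant genes of each related list, and the 2 genes most like each member (Pearson r of log2 levels, mean CPM of at least 20). Some results under this rule are not reported here. *Aqp1* and *Ly6c2* were named, and the ratios chosen, after their values had been seen. Of the other marker lists, none of the 8 choroid plexus, 8 ependymal, 8 endothelial, 6 pericyte, 7 oligodendrocyte, 6 oligodendrocyte precursor, 8 neuron and 4 erythroid markers tested, nor the 1 tested marker of monocytes and neutrophils, passed in limma, and 7 microglia markers fell.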

Additional observations from a re-analysis of the deposited data

How the results depend on the processing

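Over 16 alternatives, 126 of 128 values of the 8 genes had the same sign and the same call as in limma with the chosen settings. The log2 fold change of *Slc14a1* lay between 0.85 and 0.96 with an adjusted p of at most 0.0272. *Kcnj16* changed sign without DT replicate 2 (-0.13 to 0.00053 with 1 library left out), and *Atp1b2* passed with DESeq2 (0.29), which called 2 of the 8 genes higher. In the fits without 1 library, *Slc14a1* was the 1 member called in each. The cause was not tested.

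Among related genes, 0 rose with no filter, TPM, quantile normalization, no variance trend or any 1 library left out (0 to 0), and 2 rose with DESeq2. Over all genes, 84 rose and 24 fell, against 35 and 11 with no variance trend and 227 and 98 with DESeq2. With 1 library left out, from 39 to 72 rose and from 9 to 20 fell, with 39 without DT replicate 1 and 40 without DT replicate 2, and with 11, 9, 10 and 10 lower without PBS replicates 1, 2 and 3 and DT replicate 2. These fits had fewer samples.

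Same-numbered libraries had correlations of deviations of 0.115, 0.0105 and 0.118, and differently numbered ones of -0.124 to 0.0115. The labels do not say whether the numbers pair the libraries, and the main fit left them unpaired. Under the replicate block 79 genes rose and 30 fell, *Slc14a1* kept its call (0.92, adjusted p = 0.00425), and no other member passed. With the block, the adjusted p in limma was 0.0622 for *Atp1b2* and 0.0876 for *Kcnj10*, against 0.207 and 0.307 without it. Depth limits *Aqp9* (124 to 276 reads) most.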
